A study of Mus musculus with 4 samples.

Results

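The 6 mouse Iroquois genes, Irx1 to Irx6, and 3 further homeobox genes of the heart, Shox2, Hopx and Meis1, were followed in embryonic hearts. In the mutants, the histone deacetylase gene Hdac3 was targeted by Cre in the Nkx2-5 lineage. Members were taken by name from the array annotation, which gave 11 probes for the 9 genes among 39429 probes for 30342 gene names. All 11 probes passed the filter on dim signal, which kept 25506 probes. RNA came from microdissected hearts of mouse embryos at embryonic day 9.5 on a mixed CD1/B6/129 background. Mutants carried Nkx2.5Cre with 2 floxed Hdac3 alleles (Nkx2.5Cre; Hdac3f/f), so that recombination occurs in the Nkx2-5 lineage and other cells of the heart keep the gene, and littermate controls are labelled Hdac3f/f with no Cre stated. Effects of Cre itself and of the lost gene cannot be told apart. Each of 4 two-colour Agilent arrays on 1 slide set mutant against control heart RNA, pooled from 3 hearts per condition where the label of replicate 1 states it. The replicates are labelled biological and independent, so that n = 4 pairs, and precision is limited by that number.

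Iroquois proteins are transcription factors with a homeodomain of the TALE class, and their genes lie in a pair of clusters that arose by duplication. In the heart, Irx4 is known for its restriction to the ventricles, Irx3 for the trabeculae and the fast conduction system, and Irx5 for repressing a potassium channel gene across the ventricular wall. Irx1 and Irx2 mark parts of the ventricular septum, and the Iroquois genes are also active in neural tube, foregut and skin. Shox2 is a paired-class factor needed for the sinus node, where it opposes Nkx2-5. Hopx is a small homeodomain protein that does not bind DNA and restrains serum response factor together with class I deacetylases. Meis1 is a TALE partner of HOX proteins and is known for halting the cell cycle of heart muscle after birth.

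The probes that the results turn on are shown by the first 30 of their 60 bases, 5′ to 3′, with no base singled out, because they show which stretch of each transcript was read. Positions are those of the array files on mm9, and the exon or UTR at each was not analysed here. The Irx2 probes lie on the plus strand of chromosome 13 at 72771499 to 72771558 (brighter) and 72768784 to 72768843 (dimmer), and the Irx4 probe on the plus strand of chromosome 13 at 73406712 to 73406771. The Irx6 probe lies on the plus strand of chromosome 8 at 95203880 to 95203939. The Shox2 probe lies on the minus strand of chromosome 3 and its 60 bases span 380 bases from 66779435 to 66779814, so it is split in the genome. The longest run of bases shared by any of the 55 pairs of member probes was 10, between Irx1 and Meis1.
Irx2, brighter probe: gatacctacggttccagtttattcacatag
Irx2, dimmer probe: cggggatgccttgtgcgaatcaggctcaga
Irx4: aagatgagaagaccggagagcacagccgat
Irx6: caatcactgtgtaactttcttgctgaaatg
Shox2: agagctaagtgtagaaaacaggaaaatcaa

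The direction of every ratio follows the columns of the authors' deposited table, which are named mutant against wild type. The labels give the mutant RNA as Cy5 on all 4 arrays, whereas over bright probes these columns ran with the scanner's Cy5 over Cy3 ratio on arrays 1 and 2 (slopes of 1.02 and 1.01) but opposite to it on arrays 3 and 4 (slopes of -0.989 and -1.02). Over all probes, the 4 pairs of arrays of opposite orientation correlated below 0 in the deposited columns (r = -0.0469, -0.419, -0.0728 and -0.266), and above 0 when every array was read as labelled. Pairs of the same orientation correlated at r = 0.565 and 0.450 under either reading. The direction is not settled, because the column names give one reading and the labels the other. The correlations above 0 in all 6 pairs as labelled cannot decide between them. Dye effects of single probes, shared by the arrays, can give such correlations also where the dyes were swapped. Values below follow the column names, and most means are also given as labelled. The description fields of replicates 2 to 4 speak of embryonic stem cells, against hearts in every other label of these samples. All 11 heart muscle markers were well above background, with summed signals of 1166390 to 1390360 in the mutant and 1033810 to 1497530 in the control channels. Array 3 had the widest spread of ratios, with an SD of 0.43 over all probes against 0.21 to 0.25 on the others. Hdac3 read -0.22, -0.50, -0.52 and -1.15 on arrays 1 to 4, a mean log2 ratio of -0.60 ± 0.39 (SD, n = 4) that did not pass the test (limma, adjusted p = 0.579) and became 0.238 as labelled. Whether the Hdac3 probe lies in the deleted part was not analysed here, so it is no firm check of the labels.

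Among the 9 genes, Irx2 and Irx4 read lower and Irx6 read higher in the mutant pools on all 4 arrays. Shox2 read higher on 3 of 4, and the remaining members lay near 0, differed in sign between arrays or differed between their probes. The mean mutant over control ratio was 0.748 for Irx2, 0.846 for Irx4 and 1.2 for Irx6. None of the 11 probes passed the threshold of 0.05 after Benjamini-Hochberg adjustment over all probes (limma), where 0% of probes passed in either direction and no adjusted p was under 0.326. Taking unadjusted p-values under 0.05, 2 member probes were lower and 1 was higher, against 4.88% and 3.65% of all probes. The mean lay above 0 for 4 of the 11 (51.9% of all probes) and below 0 for 7 (48.1%). Lower on all 4 arrays were 4 of the 11 probes, against 10.2% of all probes, and higher on all 4 was 1, against 9.62%. With 11 probes chosen in view of earlier results, these counts are a description of the members only.

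**Figure D1:**
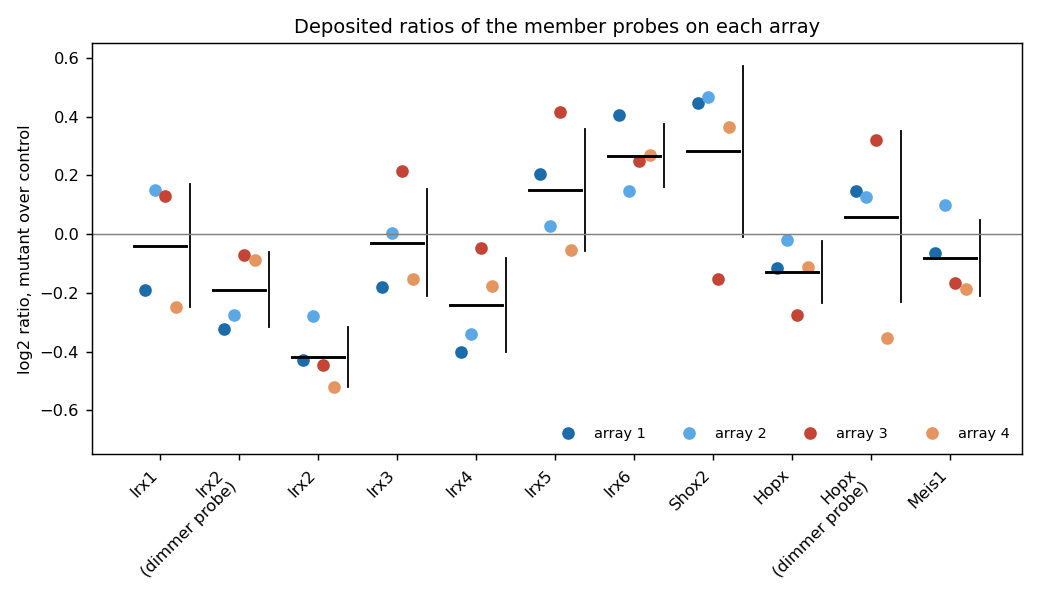
Deposited log2 ratios of mutant over control (vertical axis) for the 11 member probes, with one point per array, a horizontal bar at the mean and a vertical line for the mean ± SD over 4 arrays. Irx2, Irx4 and the brighter Hopx probe lie below 0 on every array and Irx6 above 0 on every array, while the Shox2 point of array 3 lies at -0.152, apart from the others.

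Irx2, a factor of the ventricular septum and of neural tissue, had the member value farthest from 0. Its brighter probe read log2 ratios of -0.43, -0.28, -0.45 and -0.52 on arrays 1 to 4. The values were close together and all below 0, with a mean of -0.42 ± 0.10 (SD, n = 4) and an adjusted p of 0.579 (limma), the 49th smallest p of the probes tested. The signal levels of the mutant channels (9.95 to 10.29 on the log2 scale) lay wholly below those of the control channels (10.38 to 10.80), which held for 1.23% of all probes and, among members, for 2 of 11 (with Irx4); 0 of 11 lay wholly above, against 1.29%. The mean was -0.35 on arrays 1 and 2 and -0.48 on arrays 3 and 4. As labelled, the mean was 0.065, against -0.11 for the dimmer probe, so that the probes differed in sign under that reading. The dimmer probe read -0.32, -0.28, -0.07 and -0.09, also below 0 on each array, with a mean of -0.19 ± 0.13 (SD, n = 4; adjusted p = 0.579). That probe was near background, with spot signals of 49.0 to 117 over local backgrounds of 34 to 86, and its array 3 value was 0.12 when the ratios were recomputed from the scanner intensities.

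Irx4, the ventricular member, lies beside Irx2 and read lower as well. Its ratios were -0.40, -0.34, -0.05 and -0.18, a mean of -0.24 ± 0.16 (SD, n = 4; limma, adjusted p = 0.579). All arrays were below 0, with arrays 1 and 2 farther from it (mean -0.37) than arrays 3 and 4 (mean -0.11). The mutant levels of 11.69 to 11.94 lay wholly below the control levels of 11.97 to 12.12, by a narrow margin. As labelled, the mean was -0.129. Irx1, the third gene of this cluster, read -0.19, 0.15, 0.13 and -0.25, with a mean of -0.04 ± 0.21 (SD, n = 4; adjusted p = 0.910) and a 95% interval of -0.28 to 0.20. It was on either side of 0 on 2 arrays each, and its mutant levels (10.43 to 11.04) and control levels (10.50 to 11.02) overlapped almost fully.

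**Figure D2:**
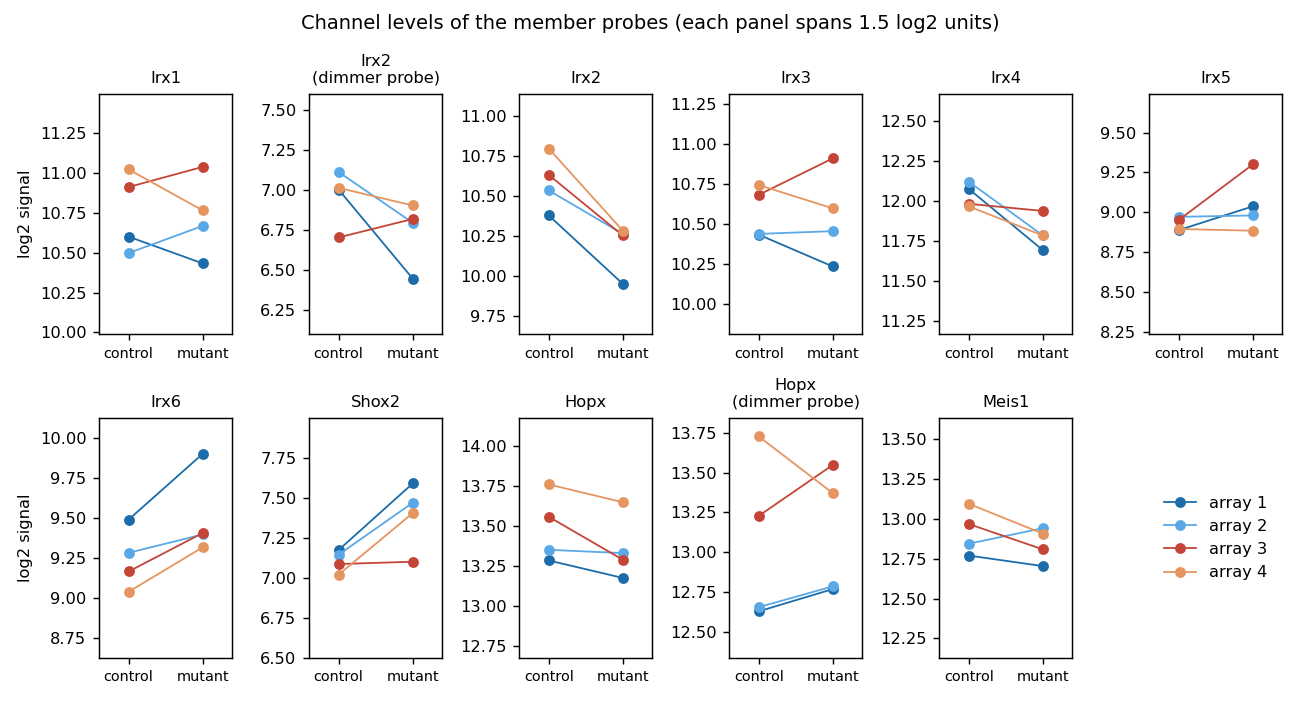
Log2 signal of each member probe in the control and mutant channel of each array, normalized by loess within arrays and by Aquantile between them, with a line joining the 2 channels of an array. The channels of the brighter Irx2 probe and of Irx4 do not overlap between groups, whereas those of the other 9 probes do.

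In the other cluster, Irx6, whose part in heart is little known, read higher in the mutant pools. Its ratios were 0.41, 0.15, 0.25 and 0.27, a mean of 0.27 ± 0.11 (SD, n = 4; limma, adjusted p = 0.579). All values were above 0, and the means of arrays 1 and 2 (0.28) and of arrays 3 and 4 (0.26) were nearly equal. The mutant levels (9.32 to 9.90) and control levels (9.04 to 9.49) overlapped through the control channel of array 1. As labelled, the mean was 0.009.

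Irx5, the repressor of a ventricular potassium channel gene, read 0.21, 0.03, 0.42 and -0.05, a mean of 0.15 ± 0.21 (SD, n = 4; limma, adjusted p = 0.650). Array 3 carried much of that mean, which was 0.061 without it. Irx3, of the trabeculae and conduction system, read -0.18, 0.01, 0.22 and -0.15, a mean of -0.03 ± 0.18 (SD, n = 4; adjusted p = 0.932) with a 95% interval of -0.25 to 0.19. Its arrays lay on both sides of 0. The signs of the Irx1 and Irx3 means turned to 0.034 and 0.038 with scanner intensities centred on the median. As labelled, Irx1 was at 0.02, Irx3 at -0.059 and Irx5 at -0.032.

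The RefSeq table of GRCm38.p6, used for gene order, places Irx1, Irx2 and Irx4 together on chromosome 13 and Irx3, Irx5 and Irx6 together on chromosome 8. Averaged over the 3 genes by their brighter probes, the chromosome 13 cluster read -0.34, -0.15, -0.12 and -0.32 on arrays 1 to 4, and the chromosome 8 cluster 0.14, 0.06, 0.29 and 0.02. On each array the chromosome 8 cluster was the higher, by 0.36 ± 0.11 on the log2 scale (SD, n = 4). Irx1 and Irx3, at -0.04 and -0.03, added almost nothing to it. It was between 0.31 and 0.41 in the other settings tried, apart from the reading as labelled, where it was -0.013. No test was made of this average, which is over genes chosen with earlier results known.

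The neighbours of the clusters formed a fixed list of 11 genes, of which 8 were measured. The means of 6 lay below 0 and those of 2 above, and their median was -0.07, or 0.068 as labelled. Over all genes, 46.6% of means lay below 0 and the median was 0.01. Lower on all 4 arrays were 2 of the 8, against 9.73% of all genes. Crnde, a long noncoding RNA gene next to Irx5 in the RefSeq order, read -0.23, -0.39, -0.56 and -0.41. It lay below 0 on every array, with a mean of -0.40 ± 0.14 (SD, n = 4; limma, adjusted p = 0.579), while the Irx5 mean was above 0. Rpgrip1l, a ciliary gene beyond Fto, was at -0.16 ± 0.06 and Ice1 at -0.26 ± 0.42, neither past the test (adjusted p = 0.584 and 0.635). Ice1 was above 0 on arrays 1 and 2, at 0.04 and 0.10, and its mean was -0.079 without array 3. As labelled, Crnde was at 0.089, Rpgrip1l at 0.048 and Ice1 at 0.331. Ndufs6, next to Irx4, and Mmp2, next to Irx6, lay at 0.06 and -0.01.

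**Figure D3:**
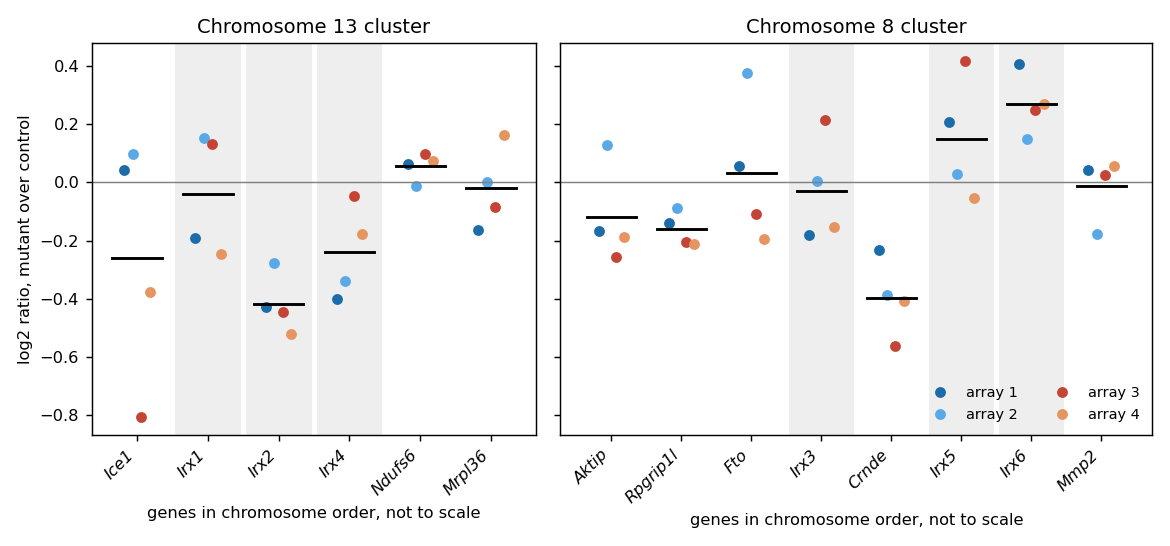
Log2 ratios of mutant over control for the genes of the Iroquois clusters (shaded) and their measured neighbours, in chromosome order and not to scale, with one point per array and a bar at the mean of 4. Irx2 at -0.42, Irx4 at -0.24 and Crnde at -0.40 lie below 0 on all arrays, and Irx6 at 0.27 above.

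The promoters of Irx2 and Irx4 are shown because both genes read lower on every array. The sequences are the 250 bases before the RefSeq start, read 5′ to 3′ on the plus strand of chromosome 13 in GRCm38.p6, at chr13:72628570-72628819 for Irx2 and chr13:73260247-73260496 for Irx4. Capitals mark GGGCGG, the letters bound by SP1 family factors, sought on both strands.
Irx2 promoter: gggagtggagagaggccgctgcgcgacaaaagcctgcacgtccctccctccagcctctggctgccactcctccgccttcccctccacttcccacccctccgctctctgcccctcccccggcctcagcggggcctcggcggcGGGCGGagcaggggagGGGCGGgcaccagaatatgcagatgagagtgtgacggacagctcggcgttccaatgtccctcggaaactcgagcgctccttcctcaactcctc
Irx4 promoter: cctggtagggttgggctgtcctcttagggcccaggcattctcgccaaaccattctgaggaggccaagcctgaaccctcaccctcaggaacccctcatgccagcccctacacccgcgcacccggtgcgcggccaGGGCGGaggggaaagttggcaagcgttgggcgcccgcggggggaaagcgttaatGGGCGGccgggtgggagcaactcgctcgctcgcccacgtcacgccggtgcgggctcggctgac

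Both windows are rich in G and C, at 68.4% for Irx2 and 68.8% for Irx4 against a median of 52.4% over 32851 promoters of the same length. They hold 19 and 22 CpG pairs against a median of 6. Each has 2 matches to GGGCGG, a letter pattern found in 32.7% of all promoters, and neither has TATAAA (12.4%) or ACANNTGT (6.31%), a pattern bound by Iroquois proteins. Irx2 alone holds CCAAT, in 33.8% of all promoters, and AAGTGG, in 14.1%. AGGTGT (11.8%) and AGATAA (9.99%) had no match in either. No match overlapped one of another pattern, and a match is a description of these letters only.

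Shox2, the sinus node factor, read 0.45, 0.47, -0.15 and 0.37, a mean of 0.28 ± 0.29 (SD, n = 4; limma, adjusted p = 0.579). Arrays 1, 2 and 4 were close together above 0 and array 3 stood apart below it, and without array 3 the mean was 0.43. The probe was dim, with spot signals of 59.0 to 156 over local backgrounds of 27 to 75, and its array 3 ratio was 0.01 when recomputed from the scanner intensities. Mutant levels ran from 7.10 to 7.59 and control levels from 7.02 to 7.17, overlapping through array 3. As labelled, the mean was 0.175.

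The fixed list linked to Shox2, drawn mostly from the sinus node and venous pole, had 15 of 16 genes measured. Of their means, 8 lay above 0, against 53.4% of all genes, and 7 below. The median was 0.02, or 0.015 as labelled. The list also holds Nkx2-5 (-0.08), which Shox2 opposes, Gja5 (0.27) and Nppa (-0.31), so it does not describe sinus node genes alone. At an unadjusted p under 0.05, 3 were higher and 0 lower, against 3.84% and 4.56% of all genes, none past the adjusted test, and 5 were higher on all 4 arrays against 10% of all genes. Smoc2, a secreted matrix protein, read 0.39, 0.55, 0.40 and 0.60, with a mean of 0.48 ± 0.10 (SD, n = 4; adjusted p = 0.579), all above 0 and close together. Vsnl1, a calcium sensor of the sinus node, was at 0.37 ± 0.28 and Tbx3, a T-box repressor of the conduction system, at 0.35 ± 0.35. Vsnl1 was at 0.238 without array 2 and Tbx3 at 0.186 without array 3. As labelled, Smoc2 was at -0.014, Vsnl1 at 0.115 and Tbx3 at -0.191. The pacemaker channel gene Hcn4 was not well above background on all 4 arrays in either channel and was not tested.

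Hopx was among the brightest members, and its probes, at chr5:77516460-77516519 (brighter) and chr5:77516624-77516683 on the minus strand in mm9, differed. The brighter probe read -0.11, -0.02, -0.28 and -0.11, below 0 on every array, a mean of -0.13 ± 0.11 (SD, n = 4; limma, adjusted p = 0.629). The other probe read 0.15, 0.13, 0.32 and -0.35, above 0 on 3 arrays, a mean of 0.06 ± 0.29 (SD, n = 4; adjusted p = 0.883). Only on array 4 did both read below 0. Averaged over both probes, Hopx was at -0.04, so that no direction for the gene could be given. As labelled, the brighter probe was at 0.063 and the other at 0.076.

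Of 17 genes linked to Hopx, 16 were measured, 9 above 0 and 7 below, against 53.4% and 46.6% of all genes. Their median was 0.03, or 0.068 as labelled. At an unadjusted p under 0.05 (limma), 1 was higher and 1 lower, against 3.84% and 4.56% of all genes. None passed the adjusted test, as for 0% of all genes. Hdac2, the class I deacetylase that Hopx is known to recruit, read -0.27, -0.04, -0.36 and -0.55, a mean of -0.30 ± 0.21 (SD, n = 4; limma, adjusted p = 0.579), below 0 on every array. Mrtfa, a cofactor of serum response factor, read 0.09, 0.05, 0.48 and 0.39, a mean of 0.25 ± 0.22, and its other probe was at 0.12. Gata4, a zinc finger factor of the heart, was at 0.18 ± 0.12 and above 0 on every array. As labelled, Hdac2 was at 0.147, Mrtfa at -0.184 and Gata4 at -0.019.

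Meis1 read -0.07, 0.10, -0.17 and -0.19, a mean of -0.08 ± 0.13 (SD, n = 4; limma, adjusted p = 0.757), below 0 on 3 arrays, with a 95% interval of -0.28 to 0.12. Mutant levels (12.70 to 12.94) and control levels (12.77 to 13.09) overlapped. As labelled the mean was 0.096, and with scanner intensities centred on the median it was 0.027. Of 15 genes linked to Meis1, 13 were measured, 5 above 0 and 8 below, against 53.4% and 46.6% of all genes. Their median was -0.04, or -0.029 as labelled. At an unadjusted p under 0.05 (limma), 1 was higher and 1 lower, against 3.84% and 4.56% of all genes. None passed the adjusted test, as for 0% of all genes.

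For 2 named genes of that list, different probes disagreed. Cdkn1a, the cell cycle inhibitor p21, read 0.29, 0.13, 0.57 and 0.29, above 0 on every array with a mean of 0.32 ± 0.18 (SD, n = 4; limma, adjusted p = 0.579), while its other probe was at -0.09. Hif1a, the hypoxia factor, was at -0.55 ± 0.46 and its other probe at 0.03. Without array 3, Hif1a was at -0.327. As labelled, Cdkn1a was at -0.11 and Hif1a at 0.194.

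**Figure D4:**
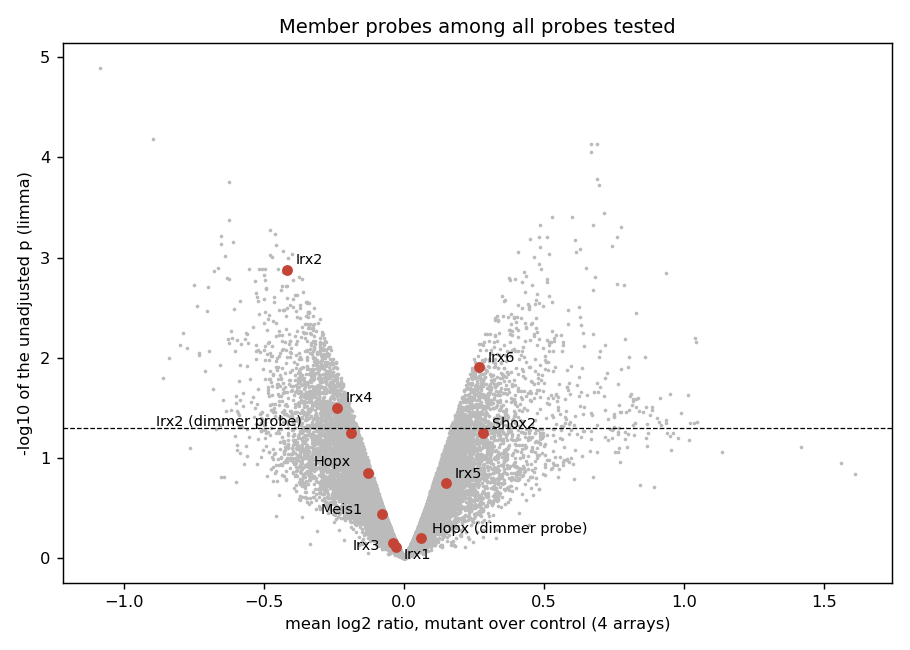
Mean log2 ratio of mutant over control (horizontal axis) against the negative log10 of limma's unadjusted test (vertical axis) for 25506 probes (grey) and the 11 member probes (red), with a dashed line at the level of 0.05. The brighter Irx2 probe, Irx6 and Irx4 lie above the line, and the other 8 member probes below it.

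Other homeobox factors of the heart and its borders, 26 genes of which 23 were measured, had 15 means above 0 and 8 below, against 53.4% of all genes above, and a median of 0.11 against 0.01 for all genes. None passed the test, 1 was higher at an unadjusted p under 0.05, against 3.84% of all genes, and 5 were higher on all 4 arrays, against 10%. As labelled, the median was 0.032. Six2, a factor of progenitor cells, read -0.11, 0.32, 0.52 and 0.66, with a mean of 0.35 ± 0.33 (SD, n = 4; limma, adjusted p = 0.579). Meis3, a TALE factor, read 0.03, 0.26, 0.57 and 0.05, a mean of 0.23 ± 0.25, and its other probes were at 0.14 and 0.02. Without array 3, Meis3 was at 0.113, and Six2 ranged from 0.222 to 0.635 over recomputations from the scanner files. As labelled, Six2 was at -0.241 and Meis3 at -0.083.

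Genes linked to Iroquois factors in ventricular identity, conduction and repolarisation were split. Of 14 measured means, 7 lay on either side of 0, against 53.4% of all genes above 0. The median of the list was 0.00, or 0.029 as labelled. At an unadjusted p under 0.05, 3 were lower and 0 higher, against 4.56% and 3.84% of all genes. Kcnd2, the potassium channel gene that Irx5 is known to repress, read -0.09, -0.19, -1.01 and -0.61, a mean of -0.47 ± 0.42 (SD, n = 4; limma, adjusted p = 0.579), below 0 on every array and farther from it on arrays 3 and 4. Hey2, a ventricular repressor, read 0, -0.21, -0.99 and -0.69, a mean of -0.47 ± 0.45. Vdr, the vitamin D receptor gene, read -0.15, -0.26, -0.32 and -0.24, a mean of -0.24 ± 0.07. That mean was -0.108 from scanner intensities with loess, -0.082 with median centring and -0.605 by the scanner software's log ratio. Without array 3, Kcnd2 was at -0.295 and Hey2 at -0.301, and Kcnd2 was at -0.254 from scanner intensities with loess and -0.837 by the scanner software's log ratio. As labelled, Kcnd2 was at 0.335, Hey2 at 0.366 and Vdr at 0.037. None of Kcnd2, Hey2 and Vdr passed, with adjusted p-values of 0.579 (limma).

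Marker lists of heart muscle and other tissues had 0 genes past the adjusted test (limma), with 53.4% of all genes above 0 and 46.6% below as background. Since bulk RNA was measured, fewer cells of a type and less RNA per cell cannot be told apart. Neural tube, a tissue that also expresses Iroquois genes, had 8 of 11 markers well above background, 5 above 0 and 3 below. Their median was 0.17, or -0.18 as labelled, and their summed signals were 7635 to 10515 in mutant and 7047 to 7815 in control channels. Sox2, Pax6 and Olig2 of that list were not well above background. All 6 measured markers of pharyngeal and foregut endoderm, of 12 listed, had means above 0, with a median of 0.18, or -0.042 as labelled, and of -0.049 on array 1. Their sums were 32437 to 51728 in mutant and 33681 to 37995 in control channels, and Foxa1, Shh, Nkx2-1, Pax9, Pax1 and Cldn6 did not pass the filter. All 10 red blood cell markers had means below 0, with a median of -0.36, or 0.083 as labelled, and of 0.034 on array 1. Of these markers, 6 were lower and 0 higher at an unadjusted p under 0.05 (limma), against 4.56% and 3.84% of all genes. Lower on all 4 arrays were 4 of the 10, against 9.73% of all genes. The sums over these markers were 398614 to 756096 in mutant and 633859 to 849747 in control channels. Pharyngeal and splanchnic mesoderm (8 of 8 genes measured, sums of 6529 to 7503 against 6093 to 6753) had a median of 0.16, or 0.003 as labelled. Endocardium and endothelium (9 of 9, sums of 17303 to 19810 against 15235 to 19832) had a median of 0.12, or 0.011 as labelled. The epicardium (7 of 7, sums of 14121 to 16781 against 12981 to 16792) was at -0.17, or -0.128 as labelled, and at 0.03 on array 4. Heart muscle was at -0.01, or 0.166 as labelled. Its medians on arrays 1 to 4 were 0.07, 0.30, -0.26 and -0.27, so the sign turned with dye orientation. Neural crest (4 of 7, sums of 1820 to 2067 against 1900 to 2338, Foxd3 and Tfap2b among those not passing) was at 0.00, or 0.112 as labelled. Its medians on arrays 1 to 4 were 0.08, 0.08, -0.12 and -0.13, with the same turn of sign. In every list the range of mutant sums overlapped that of control sums. The part of these tissues in the Irx2, Irx4, Irx6 and Shox2 values was not tested.

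The same member means were recomputed under 17 other settings. The brighter Irx2 probe stayed below 0 in 16 of 17, Irx4 below 0 in all 17, Irx6 and Shox2 above 0 in all 17. These counts overstate the number of separate checks, because some settings could not move a member mean. The dye term and the changes of filter repeated the reported means, and centring each array hardly moved them. The fit with no replicate block repeated the means from scanner intensities with loess. With the arrays read as labelled, Irx6 was only at 0.009. The lowest adjusted p (limma) for any member was 0.0762, for Shox2 with arrays 1 and 2 only, so that no member passed in any setting run.

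**Figure D5:**
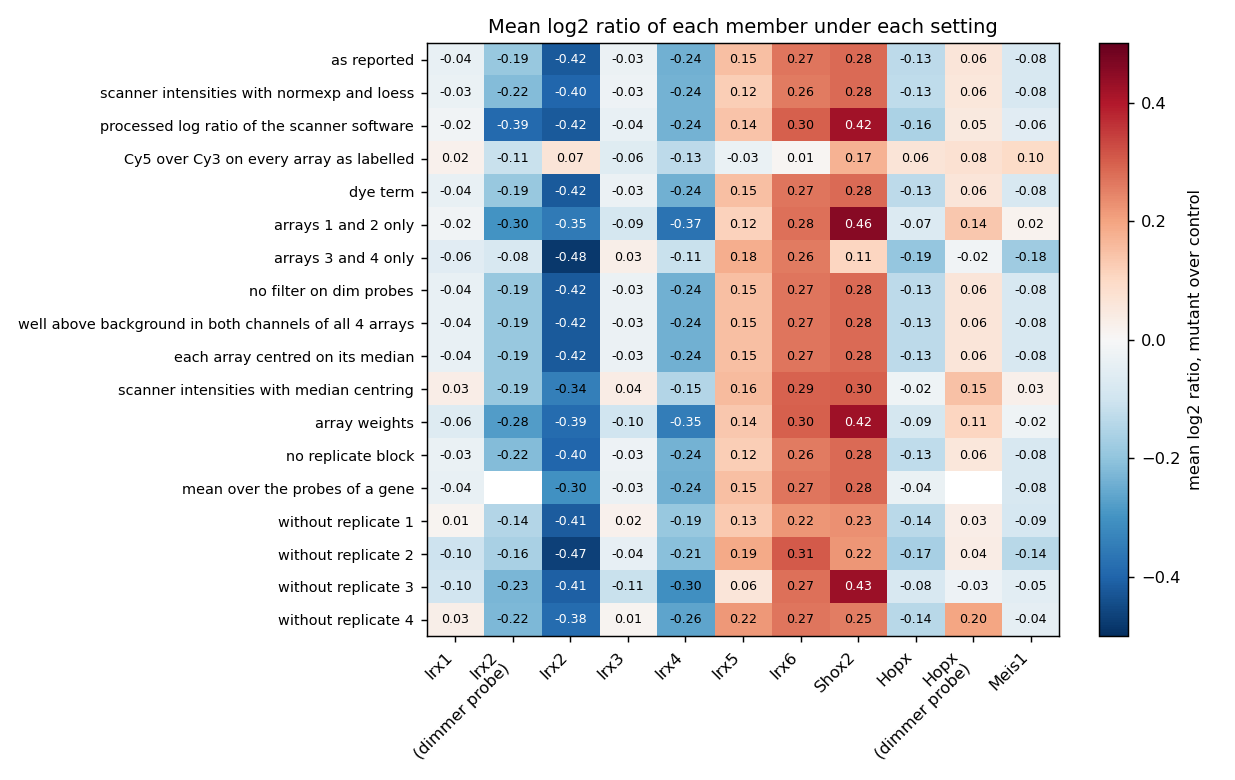
Mean log2 ratio of mutant over control for each member probe (columns) under the reported setting and 17 others (rows), with colour from blue (lower in mutant) to red (higher). Irx2, Irx4, Irx6 and Shox2 keep their colour down the columns except for the brighter Irx2 probe at 0.07 with all arrays read as labelled, where Irx6 is at 0.01. The dimmer probes of Irx2 and Hopx have no cell where the probes of a gene were averaged.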

How the data were processed

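Each array gave scanner intensities in Cy5 and Cy3, deposited as Agilent Feature Extraction files, with version 8.5.1.1 per the submitters' processing notes and 11.5.1.1 per the file headers. Saturation was at 0 spots, and 66.7% to 71.3% of spots were well above background. The authors' deposited table holds log2 ratios of mutant to wild type by its column names. Their normalization was not stated per the labels, and they tracked the scanner software's log10 ratios (LogRatio, per the file headers) turned as described. Ratios were averaged per probe name and tested against 0 with limma 3.58.1 (lmFit, eBayes) in R 4.3.3. A probe had to be well above background in 1 of the channels, mutant or control, on each of the 4 arrays, which left 25506. P-values were adjusted by Benjamini-Hochberg over all of these with a threshold of 0.05. A gene with several probes is represented by its brightest. Channel levels used normexp (offset 50), loess and Aquantile. The 4 arrays share 1 slide. The reported tests held no term for dye orientation, which was inferred from the deposited columns. It was treated as a batch only by splitting the arrays and by an alternative fit with a dye term. With that term, 0 probes passed in either direction. At an unadjusted p under 0.05 (limma), 1709 probes were then higher and 2071 lower. The brighter Irx2 probe then had an adjusted p of 0.244 (limma). Batches of dissection, litter or RNA were not analysed here. Members and gene lists were chosen with earlier results of these data known. Named genes are all members, Hdac3, and the 3 genes of smallest p in each list, of which 1 is not reported here. The fit was tested on simulated data. Alternatives covered normalization, filter, dye orientation, array weights and leaving out each array. An exact sign test of 4 arrays cannot go below p = 0.125.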

Additional observations from a re-analysis of the deposited data

Results flagged for a closer look

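Of 50 groups of 4 values for members and named genes, 3 had an end value set apart from the others by more of the range than Dixon's limit for 4 values, which chance exceeds in about 1 of 20 groups. The Shox2 ratio of array 3 was -0.152, below the other 3 arrays. The mutant level of the brighter Irx2 probe on array 1 was 9.95 on the log2 scale, below the other mutant channels. The mutant level of Irx6 on array 1 was 9.90, above the other mutant channels.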

How the results depend on the processing

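Irx4, Irx6 and Shox2 kept their direction in all 17 other settings, and Irx2 in 16. Some of these settings leave a member mean unchanged by construction, and Irx6 was only at 0.009 as labelled. With Cy5 over Cy3 on every array as labelled, 12 probes were called higher in place of 0, the cluster difference was -0.013, and these means turned sign: Irx1 0.02, Irx2 0.065, Irx5 -0.032, Hopx 0.063, Meis1 0.096, Hdac3 0.238, Crnde 0.089, Rpgrip1l 0.048, Ice1 0.331, Hdac2 0.147, Mrtfa -0.184, Gata4 -0.019, Vdr 0.037, Kcnd2 0.335, Hey2 0.366, Cdkn1a -0.11, Hif1a 0.194, Smoc2 -0.014, Tbx3 -0.191, Six2 -0.241 and Meis3 -0.083. With arrays 1 and 2 only, 17 probes were called higher and 2 lower, Meis1 was at 0.016 and Ice1 at 0.07. With arrays 3 and 4 only, Irx3 was at 0.031 and the dimmer Hopx probe at -0.016. With array weights, 3 probes were called higher and 2 lower. With median centring of scanner intensities, Irx1 was at 0.034, Irx3 at 0.038 and Meis1 at 0.027, while the median of all probes moved to 0.057. Leaving out each replicate gave 0 to 4 probes called higher (4 without replicate 1), Irx1 means of -0.102 to 0.031, Irx3 means of -0.11 to 0.022 and dimmer Hopx means of -0.027 to 0.198. The cause of these shifts was not tested. No paired analysis was possible beyond the array, because each array already pairs a mutant with a control pool; the fit on separate channels with no replicate block called 0 probes, with 397 higher and 398 lower at an unadjusted p under 0.05. Dim signal limits Shox2 and the dimmer Irx2 probe.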
